A study of Mus musculus with 16 samples.

Results

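Transcripts of the contractile apparatus of skeletal muscle were counted in RNA sequencing libraries of lumbar dorsal root ganglia, the clusters of sensory neuron bodies beside the spinal cord. The set was 39 mouse genes chosen by symbol, and each was found in the count table of 24982 gene entries. They encode filament proteins, troponins, calcium-handling proteins and energy enzymes of the sarcomere and its surroundings. By their known main isoform use, 12 were taken as genes of fast fibres, 6 as genes of slow fibres and 21 were not assigned to a fibre type.

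The ganglia came from C57BL/6 mice aged 10 to 12 weeks, 14 days after an injection into the ankle joint. The 4 groups were TrkA/C knock-in mice given vehicle (KI vehicle), wild-type mice given vehicle (WT vehicle), TrkA/C knock-in mice given complete Freund's adjuvant (KI CFA) and wild-type mice given CFA (WT CFA). The sample titles give the vehicle as saline. CFA is a suspension that provokes lasting joint inflammation, and the labels do not describe the knock-in construct or the promoter that drives it. There were 4 libraries in each group, named here by group and replicate number, and each pooled 6 ganglia of 2 mice, so a value of 1 library is not a value of 1 animal. The genotype tag of WT CFA 1 reads knock-in although its title reads wild type, and the title was used. Ntrk3, which encodes TrkC, had 99.7 to 138 CPM (counts of a gene per 1e6 counts of its library) in the KI libraries. In the WT libraries it had 30.6 to 60.2 CPM, with WT CFA 1 at 47.7.

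KI vehicle libraries held 27698035 to 37576008 counts and WT vehicle libraries 22742209 to 31816832. KI CFA libraries held 31238001 to 40910947 counts and WT CFA libraries 28490746 to 34348881. Summed markers of ganglion neurons lay between 13337 and 15267 CPM and those of ganglion glia between 5939.5 and 9498 CPM in the 16 libraries. In bulk libraries such as these, fewer cells of a type and less RNA per cell cannot be told apart. Intervals below are exact 95% binomial (Clopper-Pearson) or exact ratio intervals and cover counting error only.

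Skeletal muscle fibres contract when actin filaments slide along myosin filaments, under the control of troponin and of calcium released from the sarcoplasmic reticulum. Fast and slow fibres use different genes for the same part. Slow fibres, rich in postural muscles, hold the heavy chain of Myh7. Fast fibres hold that of Myh2 (type IIa, oxidative), Myh1 (type IIx) or Myh4 (type IIb, glycolytic and common in mouse limb and trunk muscle). Ganglion neurons and glia have no sarcomeres, although single genes of the set are also transcribed outside muscle.

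The heavy chain genes carry the fibre type reading, so the stretch where their sequences differ most is shown. Myh2, Myh1 and Myh4 lie one after another on the plus strand of chromosome 11 (RefSeq, build GRCm38.p6) at chr11:67171027-67197517, chr11:67200102-67224577 and chr11:67237812-67260447, and Myh7 lies on the minus strand at chr14:54970684-54994626. Over the whole coding sequence (GENCODE M21, the same build), Myh1 was identical to Myh2 at 91.0% of aligned bases and to Myh4 at 90.1%, and Myh2 was identical to Myh4 at 88.2%. Myh7 was identical to these 3 at 77.2% to 77.6%. The 60-base coding window with the most differences among the fast genes begins at coding base 3842 in Myh4, 3851 in Myh1 and Myh2, and 3830 in Myh7. Capitals mark the 30 positions where the 4 genes are not all the same, and at 25 of them the 3 fast genes differ among themselves.
Myh4: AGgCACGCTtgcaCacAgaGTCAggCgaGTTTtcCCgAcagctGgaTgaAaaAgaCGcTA
Myh1: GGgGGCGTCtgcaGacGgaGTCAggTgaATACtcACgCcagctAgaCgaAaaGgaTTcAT
Myh2: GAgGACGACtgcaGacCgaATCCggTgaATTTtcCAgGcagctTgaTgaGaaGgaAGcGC
Myh7: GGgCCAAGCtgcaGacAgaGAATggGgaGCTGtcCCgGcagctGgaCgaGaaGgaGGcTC

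Reads here were 50 bases long, and many stretches of these genes are the same over that length. Of all 50-base windows of the transcript, 27.4% in Myh1, 27.2% in Myh2, 18.9% in Myh4 and 22.6% in Myh7 also occur in another gene. Myh7 shares nearly all of these with Myh6, and the fast genes share theirs with each other and with Myh8. Myl1 shares 23.4% of its windows with the pseudogene Mylf-ps, and no other member shared more than 5%. How reads with several matches were counted is not given in the sources used here, so shares of Myh1, Myh2 and Myh4 are uncertain to the extent of such reads. Another annotated gene overlaps 26 members on the opposite strand, and whether counting used the strand is not given.

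The libraries differed in which of the heavy chain genes they held, so the 250 bases before the start of each are shown as well, on the gene's own strand (RefSeq, GRCm38.p6). They span chr11:67237562-67237811 for Myh4, chr11:67199852-67200101 for Myh1, chr11:67170777-67171026 for Myh2 and chr14:54994627-54994876 for Myh7 (minus strand). Capitals mark each E-box (CANNTG, the letters that myogenic bHLH factors recognise) and each TATA box (TATAAA or, on the other strand, TTTATA).
Myh4: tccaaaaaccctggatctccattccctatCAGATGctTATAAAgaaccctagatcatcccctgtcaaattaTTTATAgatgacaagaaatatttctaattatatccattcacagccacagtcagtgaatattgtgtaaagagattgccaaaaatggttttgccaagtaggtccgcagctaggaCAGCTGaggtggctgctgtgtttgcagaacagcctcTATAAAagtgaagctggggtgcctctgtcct
Myh1: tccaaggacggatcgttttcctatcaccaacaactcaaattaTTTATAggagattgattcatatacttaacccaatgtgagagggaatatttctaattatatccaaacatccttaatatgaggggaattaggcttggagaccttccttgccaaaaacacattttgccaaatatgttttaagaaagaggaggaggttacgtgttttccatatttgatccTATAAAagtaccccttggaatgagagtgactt
Myh2: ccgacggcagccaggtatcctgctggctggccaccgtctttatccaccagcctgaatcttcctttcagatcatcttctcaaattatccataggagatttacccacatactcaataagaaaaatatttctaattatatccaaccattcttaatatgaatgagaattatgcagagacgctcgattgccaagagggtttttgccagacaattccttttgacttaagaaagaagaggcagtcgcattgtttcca
Myh7: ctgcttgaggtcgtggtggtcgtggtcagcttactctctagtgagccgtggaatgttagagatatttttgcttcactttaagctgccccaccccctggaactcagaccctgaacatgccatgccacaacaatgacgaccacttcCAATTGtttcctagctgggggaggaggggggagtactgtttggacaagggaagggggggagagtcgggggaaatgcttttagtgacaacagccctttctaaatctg

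Myh4 held 2 E-boxes and 3 TATA boxes, Myh1 0 E-boxes and 2 TATA boxes, Myh7 1 E-box and 0 TATA boxes, and Myh2 neither. The TATA box nearest the start began 31 bases before it in Myh4 and 32 bases before it in Myh1. An E-box was found in 66.0% of 27025 promoter windows of that length and in 86.7% of the 30 member windows with a sequence. A TATA box was found in 13.0% of all windows and in 16.7% of the member windows. The same windows were searched for a MEF2 box (YTAWWWWTAR) and a CArG box (CCWWWWWWGG), where Y is C or T, W is A or T and R is A or G. A MEF2 box was found in 3.01% of all windows and 13.3% of the member windows, and a CArG box in 1.40% and 16.7%. Myh4 held 1 of each, Myh1 held 1 MEF2 box, and Myh2 and Myh7 held neither. A match describes the letters in the window and is not a measured binding site.

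Muscle transcripts were concentrated in a few libraries. The 39 members took 0.159% of all counts in KI vehicle 1 (0.158% to 0.161%) and 0.158% in KI vehicle 4 (0.157% to 0.160%). KI vehicle 3 followed with 0.0243%, while KI vehicle 2, of the same group, held 0.00483%. The WT vehicle libraries 1 to 4 held 0.0101%, 0.00462%, 0.00521% and 0.0173%. After CFA the share was 0.00494%, 0.0133%, 0.00713% and 0.00436% in KI CFA 1 to 4, against 0.00451%, 0.00429%, 0.00411% and 0.00416% in WT CFA 1 to 4. Libraries of 1 group thus differed several-fold in KI vehicle, WT vehicle and KI CFA and were alike in WT CFA. KI vehicle 2 lay within the range of WT vehicle. The median was 0.0914% in KI vehicle, against 0.00766% in WT vehicle, and 0.00603% in KI CFA, against 0.00422% in WT CFA. Part of each share was a level that some members had in every library. With each gene's lowest level over the libraries taken off first, the share was 0.156% in KI vehicle 1 and 0.155% in KI vehicle 4. It was then 0.0211% in KI vehicle 3, 0.00162% in KI vehicle 2, 0.0101% in KI CFA 2 and 0.000901% to 0.00130% in WT CFA.

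**Figure D1:**
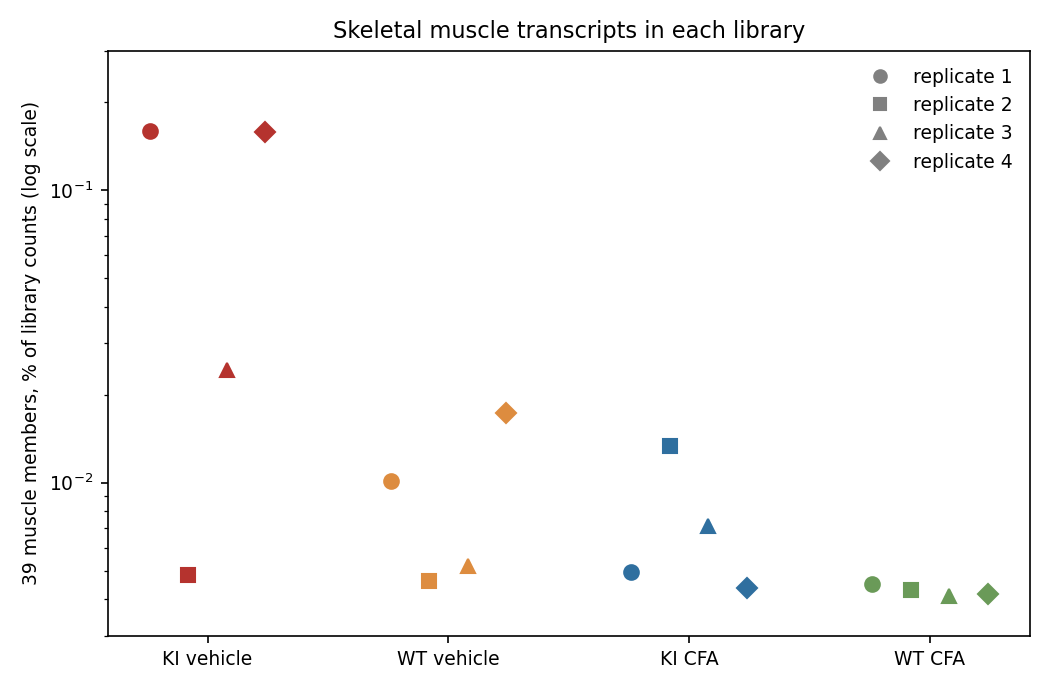
Percent of library counts in the 39 skeletal muscle genes (log axis), 1 point per library, by group. KI vehicle 1 and 4 lie near 0.16%, KI vehicle 3 at 0.0243%, and the 4 WT CFA libraries lie between 0.00411% and 0.00451%.

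Every one of the 39 members was highest in KI vehicle 4 (21 members) or KI vehicle 1 (18), and 33 had these libraries as their highest pair. The rule that chose the members used no value of these libraries, but the set was put together with earlier results of these data known, so this count describes the set. At the low end, 15 members had 0 counts in at least 1 library. In contrast, 6 members (Ldb3, Eno3, Neb, Cmya5, Myom1 and Ryr1) had at least 1 CPM in every library. Ldb3, a Z-disc adaptor, had 26.9 CPM in KI vehicle 1 and 37.0 CPM in KI vehicle 4, and between 15.1 and 18.5 CPM in the other 14 libraries. For these 6 genes a level was thus present also where most sarcomere genes were near 0.

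**Figure D2:**
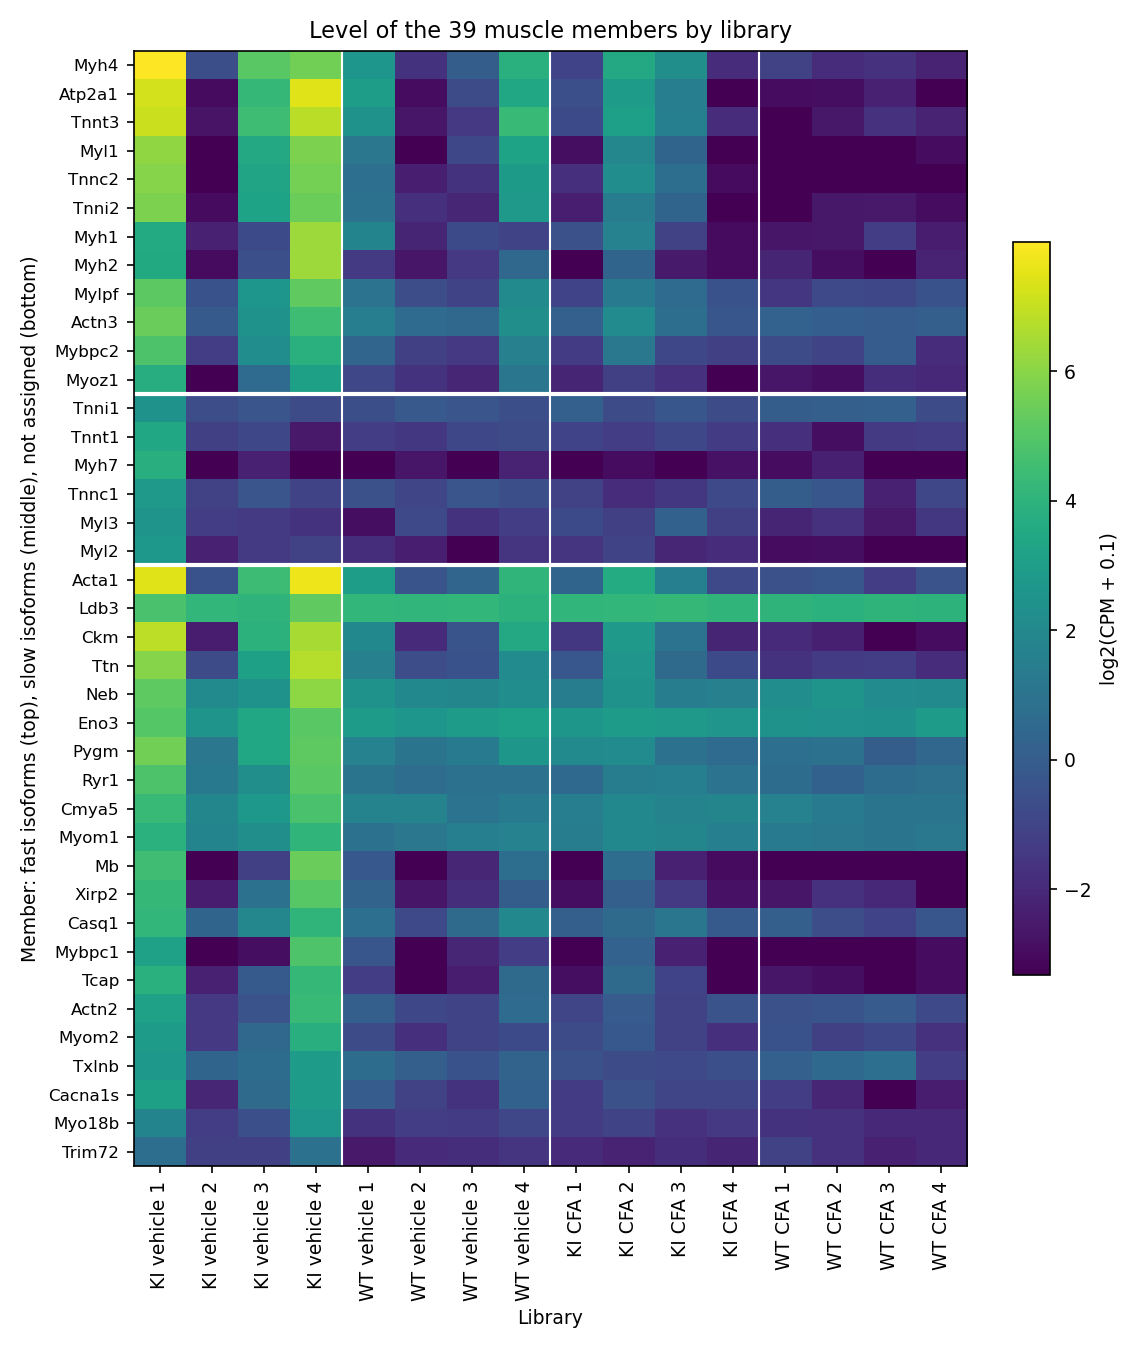
Level of each of the 39 genes in each of the 16 libraries, on a colour scale of log2 (CPM + 0.1), with fast genes at the top, slow genes in the middle and the other genes below. KI vehicle 1, KI vehicle 4 and, at a lower level, KI vehicle 3 stand out, the slow genes only in KI vehicle 1, while Ldb3 is alike in most libraries.

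Among thin filament and Z-disc genes, Acta1, the actin of skeletal muscle, had the highest mean CPM over the 16 libraries, while Ldb3 was above it in 12 of them. Acta1 had 173, 0.612, 21.3 and 212 CPM in KI vehicle 1 to 4, against 7.69, 0.660, 1.19 and 17.0 CPM in WT vehicle 1 to 4. It had 1.15, 12.2, 2.90 and 0.464 CPM in KI CFA 1 to 4, against 0.596, 0.710, 0.316 and 0.640 CPM in WT CFA 1 to 4. KI vehicle 2 lay below every WT vehicle library, so the vehicle groups overlapped. The 8 genes of the role summed to 334 CPM in KI vehicle 1 and 418 CPM in KI vehicle 4. Neb (nebulin, the ruler along the thin filament) and Xirp2, an actin-binding repeat protein, were higher in KI vehicle 4, with 67.0 and 32.7 CPM, than in KI vehicle 1, with 36.9 and 18.8 CPM. Actn3, the alpha-actinin of fast fibres, was at 22.2 CPM in KI vehicle 4 and at 42.1 CPM in KI vehicle 1. Actn2, another alpha-actinin of muscle, went the other way, with 19.7 CPM in KI vehicle 4 and 8.83 CPM in KI vehicle 1. Tcap, which caps titin at the Z disc, had 18.6 CPM in KI vehicle 4 and 14.5 CPM in KI vehicle 1, and at most 1.41 CPM in the other 14 libraries. Myoz1, a calcineurin-binding Z-disc protein of fast fibres, had 8.59 CPM in KI vehicle 4 and 13.2 CPM in KI vehicle 1, and at most 2.1 CPM elsewhere.

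Myh4 had the highest mean CPM of the heavy chain genes over the 16 libraries. It had 256, 0.559, 34.4 and 48.2 CPM in KI vehicle 1 to 4, against 6.16, 0.220, 0.923 and 14.5 CPM in WT vehicle 1 to 4. After CFA it had 0.384, 11.2, 4.66 and 0.171 CPM in KI CFA 1 to 4, against 0.376, 0.169, 0.211 and 0.116 CPM in WT CFA 1 to 4. KI vehicle 1 was the high library for Myh4, and KI vehicle 4 had 0.189 times its level although both held nearly the same share of muscle transcripts. Myh1 had 12.1, 0.106, 0.480 and 80.1 CPM in KI vehicle 1 to 4, against 3.33, 0.126, 0.484 and 0.397 CPM in WT vehicle 1 to 4. Myh2 had 11.7, 0.0266, 0.583 and 80.7 CPM in KI vehicle 1 to 4, against 0.283, 0.0629, 0.264 and 1.31 CPM in WT vehicle 1 to 4. For both, KI vehicle 4 stood far above the 15 other libraries. Myh1 had 0.608, 3.11, 0.362 and 0.0244 CPM in KI CFA 1 to 4, against 0.0627, 0.0676, 0.316 and 0.0873 CPM in WT CFA 1 to 4. Myh2 had 0, 1.16, 0.0777 and 0.0244 CPM in KI CFA 1 to 4, against 0.125, 0.0338, 0 and 0.116 CPM in WT CFA 1 to 4. KI CFA 2 was the highest library after CFA for both. Myh7, the slow heavy chain gene, had 419 counts (14.2 CPM) in KI vehicle 1 and 0 counts in KI vehicle 4. The other 14 libraries held 0 to 3 counts of it.

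Expressed as shares of the counts of the 4 heavy chain genes, whose coding lengths lie between 5805 and 5826 bases, the libraries with the most muscle had unlike make-ups. In KI vehicle 1 (8672 heavy chain counts), Myh4 took 87.1% (86.3% to 87.8%), Myh7 4.83%, Myh1 4.13% and Myh2 3.99%. In KI vehicle 4 (5790 counts), Myh2 took 38.6% (37.4% to 39.9%), Myh1 38.3%, Myh4 23.1% (22.0% to 24.2%) and Myh7 0, which allows a share of up to 0.0637%. The intervals of the 2 libraries do not overlap for any of the 4 genes. KI vehicle 3 (1039 counts) was 96.7% Myh4, with 1.64% Myh2, 1.35% Myh1 and 0.289% Myh7.

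Smaller amounts elsewhere also differed. In WT vehicle 1 (276 counts) Myh4 took 63.0%, Myh1 34.1% and Myh2 2.90%, whereas in WT vehicle 4 (411 counts) Myh4 took 88.8%, Myh2 8.03% and Myh1 2.43%. In KI CFA 2 (547 counts) Myh4 took 72.2%, Myh1 20.1% and Myh2 7.50%, and in KI CFA 3 (197 counts) Myh4 took 91.4% and Myh1 7.11%. Thus Myh4 was the leading heavy chain gene in 6 of the 7 libraries with at least 100 heavy chain counts, KI vehicle 4 being the exception. The 4 WT CFA libraries had too few counts, 11 to 19 in each, for a reading.

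**Figure D3:**
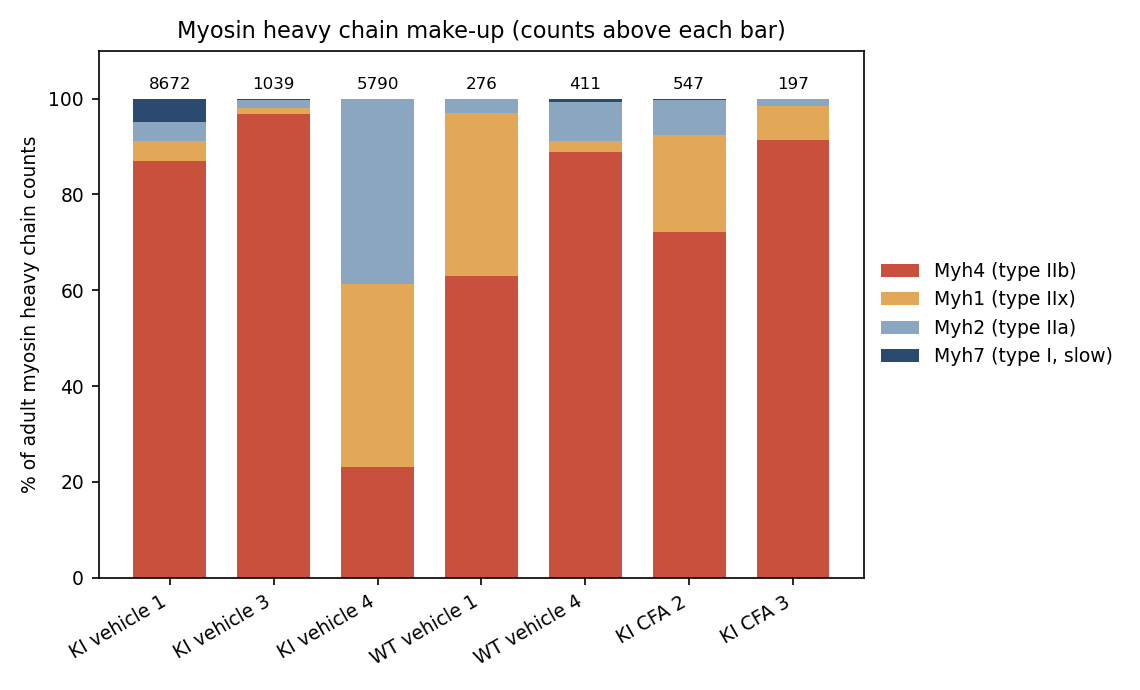
Shares of Myh4, Myh1, Myh2 and Myh7 among the counts of the 4 heavy chain genes, as stacked bars in percent, for the libraries with at least 100 such counts. Myh4 makes up 87.1% in KI vehicle 1 and 23.1% in KI vehicle 4, where Myh1 and Myh2 take most of the rest.

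The light chains sit on the neck of the myosin head, an essential and a regulatory chain on each, with Myl1 and Mylpf in fast fibres and Myl3 and Myl2 in slow fibres. Myl1 had 69.9, 0, 11.1 and 54.0 CPM in KI vehicle 1 to 4, against 2.13, 0, 0.440 and 9.24 CPM in WT vehicle 1 to 4. In KI CFA 1 to 4 it had 0.0320, 3.73, 1.14 and 0 CPM, against 0, 0, 0 and 0.0291 CPM in WT CFA 1 to 4. Its order over libraries was that of Acta1 at the top end except that KI vehicle 1 stood above KI vehicle 4. Mylpf had 35.5, 0.612, 6.07 and 37.0 CPM in KI vehicle 1 to 4, against 1.88, 0.534, 0.396 and 4.20 CPM in WT vehicle 1 to 4. The slow partner Myl3 had 5.62, 0.319, 0.274 and 0.217 CPM in KI vehicle 1 to 4, against 0.0354, 0.471, 0.220 and 0.317 CPM in WT vehicle 1 to 4. For Myl3 only KI vehicle 1 stood far above the rest. Myl2 had 6.50, 0.106, 0.274 and 0.361 CPM in KI vehicle 1 to 4, against 0.177, 0.0943, 0 and 0.238 CPM in WT vehicle 1 to 4, which is the same pattern. After CFA, Mylpf had 0.384, 2.43, 1.45 and 0.611 CPM in KI CFA 1 to 4, against 0.251, 0.473, 0.456 and 0.611 CPM in WT CFA 1 to 4. Myl3 had 0.480, 0.339, 1.04 and 0.342 CPM in KI CFA 1 to 4, against 0.125, 0.203, 0.0702 and 0.262 CPM in WT CFA 1 to 4. The slow chains thus showed no library after CFA near the level of KI vehicle 1. Myl2 had 0.224, 0.396, 0.130 and 0.171 CPM in KI CFA 1 to 4, against 0.0314, 0.0338, 0 and 0 CPM in WT CFA 1 to 4.

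Troponin T ties the troponin complex to tropomyosin, troponin I inhibits contraction and troponin C binds calcium. Tnnt3, the fast troponin T, had 137, 0.0532, 22.3 and 114 CPM in KI vehicle 1 to 4, against 5.60, 0.0629, 0.264 and 19.6 CPM in WT vehicle 1 to 4. In KI CFA 1 to 4 it had 0.480, 8.26, 2.87 and 0.171 CPM, against 0, 0.0676, 0.211 and 0.116 CPM in WT CFA 1 to 4. Tnnt1, its slow partner, had 10.7, 0.346, 0.445 and 0.0722 CPM in KI vehicle 1 to 4, against 0.319, 0.251, 0.440 and 0.516 CPM in WT vehicle 1 to 4. The slow gene was thus high in KI vehicle 1 and, on 2 counts, lower in KI vehicle 4 than in the other libraries of its group, while the fast gene was high in both. Tnnt1 had 0.384, 0.311, 0.440 and 0.293 CPM in KI CFA 1 to 4, against 0.188, 0.0338, 0.281 and 0.320 CPM in WT CFA 1 to 4.

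Tnni2, the fast troponin I, had 53.9, 0.0266, 9.39 and 43.1 CPM in KI vehicle 1 to 4, against 1.84, 0.189, 0.132 and 6.62 CPM in WT vehicle 1 to 4. It had 0.0960, 2.63, 1.17 and 0 CPM in KI CFA 1 to 4, against 0, 0.0676, 0.0702 and 0.0291 CPM in WT CFA 1 to 4. The order of libraries was that of Tnnt3 at the top end. The slow Tnni1 had 5.45, 0.532, 0.685 and 0.505 CPM in KI vehicle 1 to 4, against 0.567, 0.786, 0.704 and 0.555 CPM in WT vehicle 1 to 4. It had 1.02, 0.509, 0.725 and 0.513 CPM in KI CFA 1 to 4, against 0.910, 0.980, 1.02 and 0.495 CPM in WT CFA 1 to 4. Outside KI vehicle 1, Tnni1 was nearly flat. Tnnc2, the fast troponin C, had 61.1, 0, 9.53 and 49.2 CPM in KI vehicle 1 to 4, against 1.67, 0.0943, 0.220 and 7.18 CPM in WT vehicle 1 to 4. It had 0.192, 4.58, 1.58 and 0.0244 CPM in KI CFA 1 to 4, against 0 counts in all 4 WT CFA libraries. Tnnc2 thus came with the muscle libraries. Tnnc1, shared by slow fibres and heart, had 6.97, 0.373, 0.685 and 0.397 CPM in KI vehicle 1 to 4, against 0.602, 0.409, 0.704 and 0.555 CPM in WT vehicle 1 to 4. It had 0.352, 0.170, 0.259 and 0.464 CPM in KI CFA 1 to 4, against 0.910, 0.710, 0.105 and 0.437 CPM in WT CFA 1 to 4. KI vehicle 4 therefore showed no slow troponin above the level of libraries with little muscle.

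The slow share of each fast and slow pair put the same difference on a common scale, since the coding lengths within a pair are alike. In KI vehicle 1 the slow gene took 15.5% (13.5% to 17.6%) of the counts of the regulatory light chain pair (Myl2 with Mylpf) and 10.2% of troponin C (Tnnc1 with Tnnc2). It took 9.18% of troponin I, 7.44% of the essential light chains, 7.28% of troponin T and 4.83% of the heavy chains. In KI vehicle 4 the slow gene took 0.965% (0.464% to 1.77%) of the regulatory light chain pair and 0.800% of troponin C. Troponin I stood at 1.16% there, the essential light chains at 0.399%, troponin T at 0.0630% and the heavy chains at 0. In all 6 pairs the interval of KI vehicle 4 lay below that of KI vehicle 1. All 6 slow genes exceeded the range of the other 14 libraries in KI vehicle 1, and none of the 6 did so in KI vehicle 4, while all 12 fast genes exceeded it in both.

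Summed over the 12 fast and 6 slow genes, the fast share of counts was 94.6% (94.3% to 94.9%) in KI vehicle 1, 98.0% (97.5% to 98.5%) in KI vehicle 3 and 99.8% (99.7% to 99.8%) in KI vehicle 4. KI CFA 2 had a fast share of 96.7% and KI CFA 3 one of 87.6%, and among WT vehicle libraries replicate 1 stood at 95.4% and replicate 4 at 97.3%. The other 9 libraries had 129 to 207 counts of fast and slow genes and fast shares of 52.7% to 72.2%. There the slow total was 1.47 to 2.46 CPM, with 1.55 CPM in KI vehicle 4, so the slow genes had a low level also in libraries with little muscle. With each gene's lowest level over the libraries taken off first, the fast share was 97.0% in WT vehicle 1 and 97.9% in KI CFA 2.

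Enzymes and oxygen stores of the set were high in the same libraries. Ckm, muscle creatine kinase, had 118, 0.0798, 15.6 and 90.5 CPM in KI vehicle 1 to 4, against 3.76, 0.157, 0.660 and 11.3 CPM in WT vehicle 1 to 4. After CFA it had 0.256, 6.79, 1.89 and 0.122 CPM in KI CFA 1 to 4, against 0.157, 0.101, 0 and 0.0291 CPM in WT CFA 1 to 4. KI vehicle 2 was below all 4 WT vehicle libraries. Mb, the oxygen-binding myoglobin of oxidative fibres, had 42.8 CPM in KI vehicle 4 and 22.6 CPM in KI vehicle 1, and only 0.343 CPM in KI vehicle 3. Pygm, the glycogen phosphorylase of muscle, had 36.1 CPM in KI vehicle 4 and 47.7 CPM in KI vehicle 1. Eno3, the muscle enolase, had 34.3 CPM in KI vehicle 4 and 31.7 CPM in KI vehicle 1, and lay between 5.02 and 10.7 CPM in the other 14 libraries.

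The 8 thick filament, M-band and giant protein genes summed to 220.0 CPM in KI vehicle 4 and 149.9 CPM in KI vehicle 1. Ttn, titin, the molecular spring of the sarcomere, had 61.2, 0.506, 8.57 and 106 CPM in KI vehicle 1 to 4, against 2.94, 0.534, 0.616 and 4.28 CPM in WT vehicle 1 to 4. In KI CFA 1 to 4 it had 0.736, 5.97, 1.42 and 0.489 CPM, against 0.220, 0.304, 0.316 and 0.175 CPM in WT CFA 1 to 4. The highest libraries were again KI vehicle 4 and 1, and KI vehicle 2 lay just below the WT vehicle range. Mybpc1 and Mybpc2 encode the slow and the fast form of myosin-binding protein C, although fast fibres also use the slow form. Mybpc1 had 29.4 CPM in KI vehicle 4 and 8.73 CPM in KI vehicle 1, and Mybpc2 had 14.3 CPM in KI vehicle 4 and 28.2 CPM in KI vehicle 1. Myom1 and Myom2, which encode myomesins that link thick filaments at the M band, had 16.7 and 14.0 CPM in KI vehicle 4, and 15.1 and 7.41 CPM in KI vehicle 1. Cmya5, a large scaffold protein, had 26.4 CPM in KI vehicle 4 and 19.4 CPM in KI vehicle 1, and 1.89 to 6.37 CPM elsewhere. Myo18b, an unconventional myosin needed for sarcomere assembly, and Txlnb, a taxilin of muscle, stayed at or below 7.65 CPM in every library.

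Genes that couple the membrane signal to contraction complete the set. Atp2a1, the calcium pump SERCA1 of fast fibres, had 148, 0.0266, 18.6 and 174 CPM in KI vehicle 1 to 4, against 7.83, 0.0314, 0.528 and 10.9 CPM in WT vehicle 1 to 4. In KI CFA 1 to 4 it had 0.576, 7.44, 2.80 and 0 CPM, against 0.0314, 0.0338, 0.105 and 0 CPM in WT CFA 1 to 4. In all 4 WT CFA libraries and in KI vehicle 2 and KI CFA 4 it was at or near 0. Ryr1, the calcium release channel, had 34.2 CPM in KI vehicle 4 and 28.4 CPM in KI vehicle 1, and 1.05 to 4.69 CPM in the other 14 libraries. Trim72, a membrane repair protein, had the lowest mean CPM of the role over the 16 libraries, with 1.84 CPM in KI vehicle 4 and 1.59 CPM in KI vehicle 1. Casq1, the calcium store protein calsequestrin, had 16.8 CPM in KI vehicle 4 and 18.0 CPM in KI vehicle 1, and Cacna1s, the voltage sensor of the tubules, had 7.33 and 8.67 CPM there in the same order.

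KI vehicle 4 and KI vehicle 1 held the same amount of muscle transcripts (0.994 times as much in KI vehicle 4) and so could be set against each other gene by gene. The level was higher in KI vehicle 4 for 16 members and higher in KI vehicle 1 for 16, and for 7 the interval of the ratio held 1. The ratio of KI vehicle 4 to KI vehicle 1 was 6.89 (6.15 to 7.74) for Myh2, 6.61 (5.91 to 7.41) for Myh1, 3.37 for Mybpc1, 2.24 for Actn2 and 1.89 for Mb. It was 1.23 for Acta1 and 1.04 (0.957 to 1.14) for Mylpf. The ratio was 0.527 for Actn3, 0.506 for Mybpc2, 0.189 (0.178 to 0.200) for Myh4, 0.0928 for Tnni1 and 0.00673 for Tnnt1. For Myh7, at 0 counts in KI vehicle 4, the interval reached up to 0.00943. These ratios compare 2 libraries of 1 group, and no test across animals stands behind them.

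**Figure D4:**
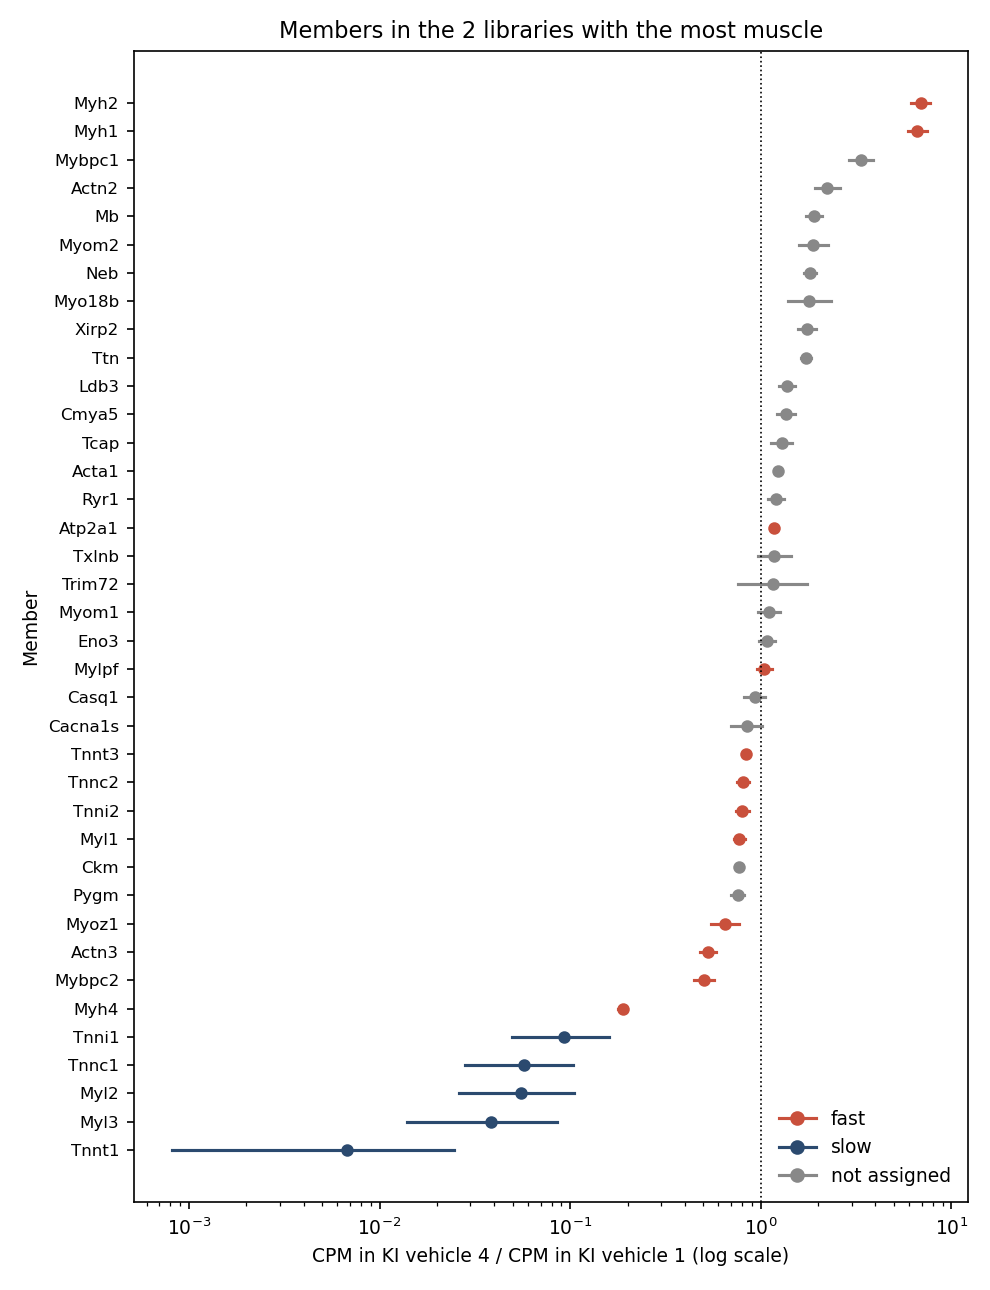
Ratio of the level in KI vehicle 4 to that in KI vehicle 1 for the 38 members with counts in both (log axis, Myh7 left out), with exact intervals, coloured by fibre type. Myh2 and Myh1 lie at the high end (6.89 and 6.61) and the slow troponin gene Tnnt1 at the low end (0.00673).

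The comparison of KI vehicle with WT vehicle is given for the members as a record of which libraries held muscle. It is not read as an effect of the knock-in. In the edgeR quasi-likelihood fit over all 16 libraries, 37 members passed the filter on low counts and 2 slow genes, Myh7 and Myl2, did not. At a Benjamini-Hochberg adjusted p under 0.05, 19 of the 37 were called, all higher in KI vehicle, where of the 15507 genes tested 2.15% were called higher, 2.19% lower and 4.34% in either direction. The called members were 4 of the fast genes (Myh2, Mylpf, Actn3 and Mybpc2), 15 of the genes not assigned and none of the slow genes. The median log2 difference of KI vehicle over WT vehicle was 3.31 over the 37 members and 0.0015 over all genes tested. Acta1 differed by 3.98 ± 1.10 (SE) on the log2 scale (edgeR adjusted p = 0.0476) and Ttn by 4.42 ± 1.03 (edgeR adjusted p = 0.0235). Ryr1 differed by 3.31 ± 0.60 (edgeR adjusted p = 0.00518), Cmya5 by 2.36 ± 0.44 (0.00629) and Myom1 by 2.02 ± 0.39 (0.00709). Myh4 differed by 4.01 ± 1.15 (edgeR adjusted p = 0.0541) and Ckm by 3.87 ± 1.13 (edgeR adjusted p = 0.0579), which did not pass.

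The count moved with single libraries. In 15 of the 19 called members the KI vehicle and WT vehicle libraries overlapped, and the 4 without overlap were Ryr1, Trim72, Myom1 and Cmya5. The share of all genes without overlap was not computed, so these 4 cannot be called unusual. Leaving out KI vehicle 1 left 7 members called, leaving out KI vehicle 4 left 3, leaving out WT vehicle 3 left 6 and leaving out WT vehicle 2 left 10. Of all genes, these fits called 354 of 15649, 284 of 15668, 367 of 15687 and 905 of 15649 in the same order. Without KI vehicle 1 and 4 together, 0 of 37 were called and their median difference was 0.51, with 30 of 37 above 0 and 3 at an unadjusted p under 0.05, against 13.1% of all genes. Leaving out KI vehicle 2, the library of that group with the least muscle, gave 33 of 38 members tested, where 2.61% of all genes were called. Ryr1, Cmya5 and Myom1 were called in each of the 8 fits that left out 1 library of the groups compared. They were not called without both high libraries (edgeR adjusted p = 0.180, 0.183 and 0.207), nor in an edgeR fit of only the 8 libraries compared, which called 0 of 34 members and had 32 at an unadjusted p under 0.05, against 20.8% of all genes. Members that passed the filter on low counts did so in part through KI vehicle 1 and 4, so the count and the median describe these libraries.

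**Figure D5:**
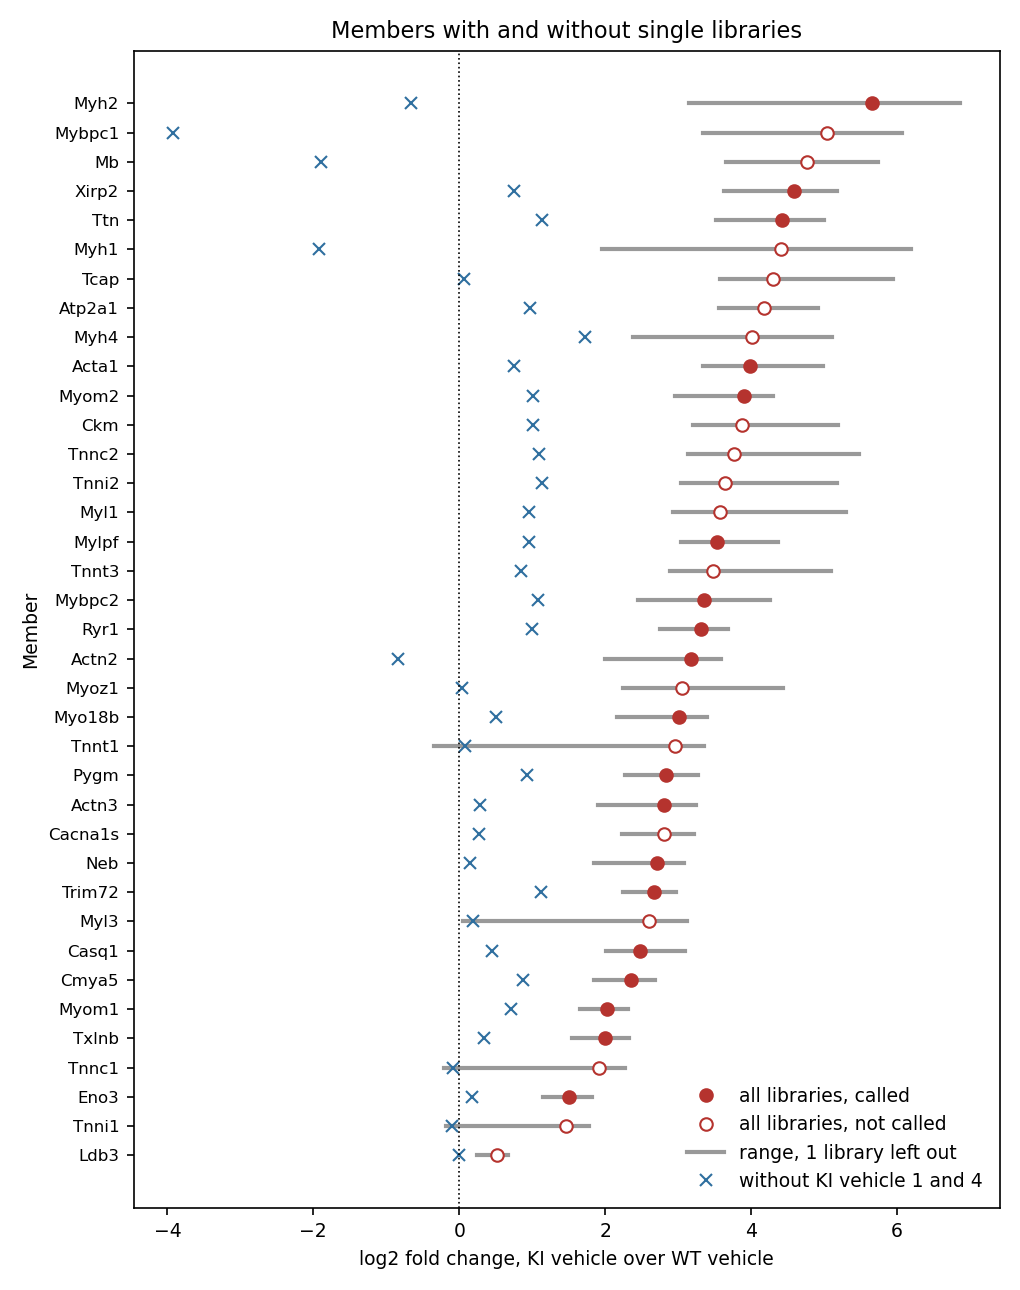
Log2 difference of KI vehicle over WT vehicle for the 37 members tested. Circles show the fit with all 16 libraries (filled where called), grey bars the range with 1 library left out, and crosses the fit without KI vehicle 1 and 4, whose median is 0.51, against 3.31 with all libraries.

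The edgeR fit over all 16 libraries called none of the 37 members in the other comparisons, while other fits called some. The filter on low counts ran over all 16 libraries, KI vehicle included, so counts are also given for the members that passed it within the 8 libraries compared. All counts here are descriptions of these libraries. For KI CFA against WT CFA, edgeR called 2.84% of all genes (1.09% higher and 1.75% lower), and 0 members had an unadjusted p under 0.05, against 12.7% of all genes. DESeq2 called 3 of 34 members, all higher in KI CFA, and 4.26% of all genes. Within the 8 libraries 23 members passed the filter, of which edgeR called 2, both higher in KI CFA, and 3.06% of all genes. Of these 23, 13 had an unadjusted p under 0.05, against 13.1% of all genes, and their median log2 difference was 0.75, with KI CFA 2 and KI CFA 3 as the high libraries.

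For KI CFA against KI vehicle, edgeR called 0 genes in all, and 36 members had an unadjusted p under 0.05, against 5.68% of all genes. DESeq2 called 9 of 34 members, all lower in KI CFA, and 0.0968% of all genes. Once KI vehicle 2 was left out, edgeR called 27 of 38 members, all lower in KI CFA, and 0.339% of all genes. Without KI vehicle 1 and 4 together it called 0 members, with 2 at an unadjusted p under 0.05, against 3.32% of all genes. Within the 8 libraries compared 36 members passed the filter and 0 were called, where 1 of 15224 genes was called. Of these 36, 34 had an unadjusted p under 0.05, against 8.07% of all genes, and their median log2 difference was -3.66.

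For WT CFA against WT vehicle, edgeR called 0 genes in all and DESeq2 called 0 members. Of the 37 members 8 had an unadjusted p under 0.05, against 6.96% of all genes, and of the 19 that passed within the 8 libraries 7 did, against 4.36% of all genes, with a median log2 difference of -0.29. Without WT vehicle 4, 0 members had such a p. The interaction of genotype and injection gave 0 calls by edgeR and by DESeq2, with 11 members at an unadjusted p under 0.05 in edgeR, against 6.29% of all genes. Without KI vehicle 1 and 4 this number was 4 of 37, against 3.83% of all genes. The comparisons share groups, so their values are not independent of each other.

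Other genes of skeletal muscle, from a list of 45, mostly followed the same libraries. Of these, 42 were highest in KI vehicle 1 or KI vehicle 4. Of the 28 tested, 12 were called by edgeR for KI vehicle against WT vehicle, all higher, where 2.15% of all genes were. Without KI vehicle 1 the number was 1 of 29, and without KI vehicle 4, or without both, it was 0. It was 4, 2 and 1 without WT vehicle 1, 2 and 3, and 0 of 27 within the 8 libraries compared. The number was 20 of 33 without KI vehicle 2, 18 of 33 without KI vehicle 3 and 8 of 33 without WT vehicle 4. Of all genes, 689, 905 and 367 were called without WT vehicle 1, 2 and 3, and 214 within the 8 libraries. Without KI vehicle 2, KI vehicle 3 and WT vehicle 4, 408, 410 and 401 of all genes were called. The 45 genes summed to 304 CPM in KI vehicle 1, 391 CPM in KI vehicle 4 and 86.1 CPM in KI vehicle 3. Elsewhere their sum lay between 58.5 CPM (WT CFA 3) and 85.5 CPM (KI CFA 2), with 84.5 CPM in WT vehicle 4. Tpm2, a tropomyosin, had 74.9 CPM in KI vehicle 1 and 106 CPM in KI vehicle 4, against 6.95 to 15.3 CPM in WT vehicle. Des, the intermediate filament protein desmin, had 26.7 CPM in KI vehicle 1 and 32.5 CPM in KI vehicle 4, against 1.85 to 5.24 CPM in WT vehicle. Srl, a calcium-binding protein of the reticulum, had 19.8 CPM in KI vehicle 1 and 23.5 CPM in KI vehicle 4, against 10.6 to 12.2 CPM in WT vehicle. Scn4a, the sodium channel of muscle, lay between 8.89 CPM (WT vehicle 4) and 13.8 CPM (KI vehicle 4), with 11.8 CPM in KI vehicle 1 and 13.2 CPM in WT vehicle 1. Jph1, a junctophilin that holds the reticulum to the tubules, had 7.89, 5.51, 4.97 and 10.0 CPM in KI vehicle 1 to 4, against 6.8, 8.20, 5.63 and 5.79 CPM in WT vehicle 1 to 4, and was not called (log2 difference 0.11, edgeR adjusted p = 0.792).

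Markers of heart, muscle precursor cells and neighbouring tissues were read beside these values. Of 7 heart genes, Nppa, Myl7 and Mybpc3 had at most 0.106, 0.320 and 0.159 CPM in any library. Tnnt2 and Tnni3, the cardiac troponins T and I, were highest in KI vehicle 1, at 1.25 and 0.508 CPM, with at most 0.440 and 0.325 CPM elsewhere. Myl4 lay between 1.27 and 2.94 CPM and the channel gene Hcn4 between 27.4 and 38.1 CPM in the 16 libraries. The heart list summed to 38.5 CPM in KI vehicle 1 and 40.4 CPM in KI vehicle 4, and to 29.9 to 37.2 CPM elsewhere.

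Of 6 genes of muscle precursor cells, Myf5, Myod1, Myog and Pax7 had at most 0.102, 0.135, 0.102 and 0.144 CPM. Myf6, which mature fibres also express, had 0.505 CPM in KI vehicle 4, 0.237 in KI vehicle 1, 0.137 in KI vehicle 3, 0.0793 in WT vehicle 4 and 0 counts elsewhere. Mymk, which drives fusion of muscle precursors, had 0.474, 0.186, 0.891 and 0.578 CPM in KI vehicle 1 to 4, against 1.56, 1.07, 1.58 and 1.94 CPM in WT vehicle 1 to 4, so every KI vehicle library was below every WT vehicle library. Its log2 difference was -1.52 (adjusted p = 0.0238 by edgeR), and for KI CFA against WT CFA it was -1.81 (adjusted p = 0.00812 by edgeR).

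Summed smooth muscle markers had 59.6 CPM in KI vehicle 1 and 79.1 CPM in KI vehicle 4, within the 33.3 to 89.8 CPM of the other libraries. Summed adipocyte markers had 4.10 CPM in KI vehicle 1, 10.6 CPM in KI vehicle 4 and 1.08 to 11.7 CPM elsewhere, with KI CFA 2 highest. Tendon, cartilage and bone markers had 34.0 CPM in KI vehicle 1, the lowest of the 16, and 47.4 CPM in KI vehicle 4, within the 37.8 to 52.9 CPM of the others. Actc1, the cardiac actin gene also used in some slow and immature fibres, had 4.03 CPM in KI vehicle 1, 0.925 CPM in KI vehicle 3 and at most 0.289 CPM elsewhere. How muscle transcripts entered these libraries was not tested, and the labels give no tissue other than the ganglia.

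Pvalb, the calcium buffer parvalbumin, is a gene of fast muscle fibres and also of proprioceptive neurons. It had 121, 105, 73.4 and 90.0 CPM in KI vehicle 1 to 4, against 46.1, 44.8, 51.9 and 83.5 CPM in WT vehicle 1 to 4. In KI CFA 1 to 4 it had 88.0, 115, 101 and 60.7 CPM, against 39.4, 43.4, 46.5 and 45.6 CPM in WT CFA 1 to 4. KI vehicle 2, with hardly any muscle transcripts, had 105 CPM, and WT vehicle 4, with the most muscle of its group, was the highest WT library. Pvalb rose by 0.81 ± 0.19 on the log2 scale in KI vehicle over WT vehicle (edgeR adjusted p = 0.0257) and by 1.05 ± 0.19 in KI CFA over WT CFA (edgeR adjusted p = 0.00403). The part of muscle in these levels was not tested.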

How the data were processed

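RNA was measured in 16 libraries, which took 150 ng of total RNA each, poly-A selection, 15 PCR cycles and single-end reads of 50 bases, per the labels' protocols. The authors deposited raw counts per gene, not normalized. The tools, per the submitters' processing notes, were Bowtie2 2.3.5.1, FastQC, HTSeq 0.6.1p1, SAMtools 1.5, TopHat2 2.1.1 and bcl2fastq 2.20, and the build was mm10. Their settings, the annotation and the use of strand are not given in the sources used here. Lanes (3 for 20 libraries) are not tied to libraries in the labels, so a sequencing batch could not be tested. Nothing beyond the pooled mice says that libraries came from separate experiments, and p-values measure the spread between these libraries.

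Members were found by symbol, and 24891 of 24954 Entrez identifiers (99.7%) matched the RefSeq table; 28 entries had no identifier. CPM used the library total without further scaling. A count of 3 equals 0.0733 to 0.132 CPM. Differences were tested with edgeR 4.0.16 (R 4.3.3): TMM, filterByExpr (15507 genes left), 1 mean per group over all 16 libraries, quasi-likelihood test, Benjamini-Hochberg adjustment over all genes, called under 0.05. The fit was tested on simulated data in which all genes had the same relative spread. Members spread far more within a group (Acta1 from 0.612 to 212 CPM in KI vehicle), so that check does not cover them. Intervals came from scipy 1.17.1, and coding sequences were aligned with mafft 7.526. Alternatives were RLE factors, no filter, library sizes without the members, a replicate block, only the 8 libraries compared, DESeq2 1.42.0 and leaving out each library; leaving out KI vehicle 1 and 4 together was added after the data were seen. The members and lists were chosen with earlier results of these data known. Values in every library are given for the most abundant member of each role and for members of fast and slow pairs. Outside the set, the 5 most abundant other muscle genes and Pvalb are named by rule. Further genes were named after their values were seen.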

Additional observations from a re-analysis of the deposited data

Results flagged for a closer look

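Of 158 sets of 4 values, nearly all of them the levels of 1 member in the libraries of 1 group, 19 held a library far from the other 3 by Dixon's test. The cutoff flags about 1 in 20 sets by chance only where values are normally distributed, and levels of few reads are not. The members share libraries, so the sets are not independent. The number flagged is thus a description and cannot be set against that rate.

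KI vehicle 1 stood apart within its group for all 6 slow genes, with Myh7 at 14.2 CPM, Tnnt1 at 10.7, Tnnc1 at 6.97, Myl2 at 6.50, Myl3 at 5.62 and Tnni1 at 5.45. KI vehicle 4 stood apart for Myh1 at 80.1 CPM and Myh2 at 80.7 CPM. Within KI CFA, KI CFA 2 stood apart for Ttn at 5.97 CPM, Neb at 5.46, Mybpc2 at 2.21, Mb at 1.56, Myh2 at 1.16 and Mybpc1 at 1.07.

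Among WT libraries, WT vehicle 1 stood apart for Myh1 at 3.33 CPM and WT vehicle 4 for Myoz1, a Z-disc protein of fast fibres, at 2.1 CPM. In WT CFA, where the levels are those of a few reads, WT CFA 3 stood apart for Myh1 at 0.316 CPM, and WT CFA 4 for Myl1 and for Mybpc1, each at 0.0291 CPM. For Myl1 and Mybpc1 this was 1 count against 0 in WT CFA 1 to 3, which the test always flags.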

How the results depend on the processing

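The number of members called for KI vehicle against WT vehicle (19) was 10 with a replicate block, 0 with only the 8 libraries compared, 0 without KI vehicle 1 and 4 together, and 3 to 33 when 1 library was left out. It changed by over 1.5 times without KI vehicle 1 (7), KI vehicle 2 (33), KI vehicle 4 (3), WT vehicle 2 (10) or WT vehicle 3 (6). The count over all genes (673) was 214 with only the 8 libraries, 1421 with DESeq2, 132 without both KI vehicle libraries and 284 to 905 leaving out 1. The count over all genes with a replicate block is not given here, so the 10 cannot be read as particular to the members. For KI CFA against WT CFA, members called (0) were 2 with only the 8 libraries and 3 with DESeq2, and genes called (441) were 241 to 460 leaving out 1 library. For KI CFA against KI vehicle, 9 members and 15 genes were called by DESeq2, 1 gene with only the 8 libraries, and 0 to 27 members and 0 to 53 genes leaving out 1. For WT CFA against WT vehicle, DESeq2 called 11 genes and leaving out 1 library gave 0 to 2.

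Replicate numbers did not pair the libraries, since correlations of same-numbered libraries ran from -0.21 to 0.13 over 24 pairs, 3 of them over 0.1. Per coding length the fast share was 92.1% in KI vehicle 1, 96.4% in KI vehicle 3, 99.5% in KI vehicle 4, 89.9% in WT vehicle 1, 95.8% in WT vehicle 4 and 93.6% in KI CFA 2. Without heavy chains it was 97.4%, 99.7%, 93.7% and 95.4% in KI vehicle 3, KI vehicle 4, WT vehicle 1 and KI CFA 2. Above each gene's lowest level it was 98.6%, 99.9%, 97.0%, 98.1% and 97.9% in KI vehicle 3, KI vehicle 4, WT vehicle 1, WT vehicle 4 and KI CFA 2.

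Of 549 values of single members under the alternatives, 398 kept direction and call, 105 lost the call, 36 gained it and 10 reversed. Without both KI vehicle 1 and 4, the log2 difference was -3.92 for Mybpc1, -1.93 for Myh1, -1.90 for Mb, -0.84 for Actn2, -0.66 for Myh2, -0.10 for Tnni1 and -0.091 for Tnnc1. Leaving out 1 library gave -0.35 to 3.36 for Tnnt1, -0.21 to 2.27 for Tnnc1 and -0.18 to 1.77 for Tnni1, the lowest each without KI vehicle 1. KI vehicle 1 had 10.7, 6.97 and 5.45 CPM of Tnnt1, Tnnc1 and Tnni1, against at most 0.516, 0.910 and 1.02 CPM in any other library. These fits also had fewer libraries, and the cause was not tested. Low counts limit the fibre type reading: 9 libraries had at most 207 counts of fast and slow genes.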

Other observations

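Genes outside the set differed between KI vehicle 4 and KI vehicle 1 as well, as values of 2 libraries with no test. Nrap, a protein of forming thin filaments and muscle-tendon junctions, had 19.4 CPM in KI vehicle 4 and 9.17 CPM in KI vehicle 1. Ankrd23, a titin-binding ankyrin repeat protein, had 23.7 CPM in KI vehicle 4 and 11.2 CPM in KI vehicle 1. Csrp3, a LIM protein of slow fibres and heart, had 4.33 CPM in KI vehicle 4 and 1.25 CPM in KI vehicle 1, which goes against the order of the slow genes of the set. It belongs to a list of 9 other slow fibre and cardiac-shared genes. This list summed to 19.0 CPM in KI vehicle 4, 18.9 CPM in KI vehicle 1 and 4.42 to 9.31 CPM elsewhere. In it, Ankrd2 (3.83 against 1.29 CPM), Myoz2 (3.39 against 3.11 CPM), Casq2 and Myh7b were also higher in KI vehicle 4. Actc1, Myh6 and Pln were higher in KI vehicle 1, and Ankrd1 had 0 counts in both. Sln, sarcolipin, an inhibitor of the calcium pump, had 0.338 CPM in KI vehicle 1 and was at 0 counts in the other 15 libraries. Myh6, which shares sequence with Myh7, had 1.32 CPM in KI vehicle 1 and 0 counts in KI vehicle 4. Myh13, a heavy chain gene of extraocular muscle, had 1.62 CPM in KI vehicle 1 and at most 0.849 CPM in the other 15.

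KI CFA 3 stood apart for blood and marrow markers, at 273 CPM summed, against at most 31.3 CPM in the other 15 libraries, while its muscle share was 0.00713%. These genes were named after their values had been seen.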
